A study of Rattus norvegicus with 3 samples.

Results

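The regions described here are the Seh1 peaks of rat oligodendrocyte progenitor cells (OPC) whose nearest annotated gene is a microRNA gene. They were taken from the authors' annotated peak table as every interval whose gene symbol is Mir followed by a digit or starts with Mirlet7. This gave 182 of 9084 annotated OPC peaks, at 109 genes, of which 108 are microRNA genes and 1, Mir155hg, is the host transcript of a microRNA. A total of 39 peaks at 38 genes lay within 10 kb of the start of the gene, 21.4% beside 25.4% of all annotated OPC peaks, and 143 lay farther. The nearest on either side of that limit were a peak at 9754 bp from Mir182 and a peak at -10075 bp from Mir3597-3.

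The study profiled Seh1, a nucleoporin of the Y complex of the nuclear pore, by chromatin immunoprecipitation and sequencing. One Seh1 library came from immature oligodendrocytes (iOL) after 1 day in triiodothyronine (T3) at 60 nM, with PDGF-AA, bFGF and NT3 withdrawn. One came from OPC, which were kept in those 3 factors without T3, and the medium of both stages had B-27, N2 and CNTF. An IgG library of iOL, also after 1 day in 60 nM T3, was not analysed here. All cells were cultured from the forebrain of Sprague Dawley rats at postnatal day 1 to 2, with no allele or transgene named. The peak lists hold 6704 iOL peaks of 209 bp and 9117 OPC peaks of 205 bp on rat build rn6. Each stage has a single library, which leaves no spread between replicates to set a difference against, and no test was made. The depth is unknown because the lists carry no read totals, and the 95% exact binomial intervals below cover counting error only. No expression was measured in these libraries, so the labelled cell types could not be checked against marker genes.

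MicroRNAs are short RNAs cut in steps from a folded hairpin, first by Drosha with Dgcr8 in the nucleus and then by Dicer1 in the cytoplasm. Loaded into an Argonaute protein, a microRNA pairs with messenger RNAs mainly through its seed, bases 2 to 8 from the 5′ end, and lowers their translation and stability. In the oligodendrocyte lineage miR-219, miR-338 and miR-138 are known to promote differentiation, and miR-9 is a microRNA of neural progenitors and neurons. The annotated start of a microRNA gene is the first base of the hairpin. The primary transcript can start many kilobases away, so distances here are to the hairpin and not to a promoter of the primary transcript.

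Of the 94 named genes with a hairpin in the RefSeq table of assembly GRCr8, 15 have one that overlaps another microRNA hairpin on the opposite strand. For all 109 this is a minimum. Mir505 and Mir3589, without a hairpin there, have mature sequences that overlap on opposite strands. ChIP does not distinguish strands, so a peak at such a gene is equally a peak at its partner. This matters for the neural microRNAs, because Mir3597-1 lies opposite Mir9-1, Mir3597-3 opposite Mir9-3, Mir3065 opposite Mir338, Mir3074 opposite Mir24-1, Mir3556a opposite Mir29a and Mir3565 opposite Mir218-1. The hairpin of Mir3597-1 (RefSeq, GRCr8 chromosome 2, 175974962 to 175975069, minus strand), with the mature miR-9b-5p in capitals, shows the overlap. It holds the reverse complement of both miR-9a arms, which are printed after it with the seed in capitals.
Mir3597-1 hairpin: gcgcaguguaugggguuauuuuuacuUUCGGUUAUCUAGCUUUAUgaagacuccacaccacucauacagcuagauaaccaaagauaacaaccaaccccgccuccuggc
miR-9a-5p: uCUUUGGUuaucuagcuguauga
miR-9a-3p: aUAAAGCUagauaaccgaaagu

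Mature sequences of the other microRNAs on which the results turn are given with the seed in capitals (RefSeq, GRCr8). These are the microRNAs studied in the oligodendrocyte lineage and those whose hairpins a peak touched, with their opposite-strand partners.
miR-338-3p (opposite Mir3065): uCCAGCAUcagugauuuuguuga
miR-3065-5p: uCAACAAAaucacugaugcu
miR-138-5p: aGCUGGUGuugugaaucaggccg
miR-145-5p: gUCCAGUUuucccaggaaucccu
miR-146a-5p: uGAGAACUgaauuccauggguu
miR-204-5p: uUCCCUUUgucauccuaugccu
miR-23a-3p: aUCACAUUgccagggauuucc
miR-24-3p (opposite Mir3074): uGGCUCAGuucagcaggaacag
miR-3074: gAUAUCAGcucaguaggcaccg
miR-434-3p (opposite Mir3543): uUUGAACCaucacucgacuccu
miR-3543: cAGGAGUCgagugaugguucaaa
miR-139-5p: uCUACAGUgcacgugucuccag
miR-139-3p: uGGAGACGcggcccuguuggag

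OPC peaks touched 4 hairpins, counted over the 94 genes with a hairpin length in GRCr8. The peak at Mir3597-1 and Mir9-1 (chromosome 2, 187582757 to 187582961) covered all 108 bp of the hairpin, with its centre 38 bp downstream of the start and a caller score of 7.02. The score is the authors' own value per peak, without a definition in the file, and ranks peaks within the OPC list only. The peak at Mir3074 and Mir24-1 (chromosome 17, 824004 to 824208, score 7.02) was centred at -50 bp and covered 53 bp of the hairpin. In GRCr8 this gene pair lies within 10 kb of Mir23b and Mir27b.

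The peak at Mir3543 and Mir434 (chromosome 6, 133716306 to 133716510, score 8.3) was centred at -79 bp and covered 24 bp. The peak at Mir139 (chromosome 1, 166589602 to 166589806, score 7.66) was centred at 159 bp and covered the last 11 bp. Scores of the 4 were 7.02 to 8.3, beside a median of 7.66 over all annotated OPC peaks. The score of 7.02 at Mir3597-1 and at Mir3074 was low in the list, with 81.4% of all annotated OPC peaks at or above it. None of the 4 overlapped an iOL peak, and few OPC peaks of any kind did, 1.73% of all annotated ones.

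Mir9-1, Mir9-2 and Mir9-3, which encode miR-9a, all had an OPC peak within 10 kb of the named hairpin when opposite-strand partners are counted. By its own symbol only Mir9-2 did, and a further symbol, Mir9, had no peak. Of all microRNA genes, 38 of 466, 8.15%, had a peak within 10 kb by their own symbol. Beside the peak on Mir9-1, Mir9-2 had a CpG island peak at -8.18 kb (chromosome 2, 11876386 to 11876590, score 8.94) and another in a LINE repeat at -306095 bp (score 6.38). At Mir9-3, through its partner Mir3597-3, peaks lay at -3.33 kb (score 7.02) and -10.07 kb (score 9.58), both in CpG islands, and at -26.21 kb (score 6.38). The nearest iOL peak to the start of Mir3597-3 lay 16876 bp away, and for Mir9-2 and Mir3597-1 it lay 868217 and 132934 bp away. The distances of Mir3597-3 run in the orientation of that gene, so a peak upstream of it is downstream of Mir9-3. The miR-9 group was put together after the values had been seen.

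The list for the oligodendrocyte lineage holds microRNAs studied in oligodendrocyte development. Of its 30 genes, 7 were named by an OPC peak through their own symbol, and 2 within 10 kb. Mir9-1, Mir9-3 and Mir338, reached only through opposite-strand partners, are not among the 7. Mir23b and Mir27b of this list lie within 10 kb of Mir3074 in GRCr8 and are not among the 7 either, since a peak names only its nearest gene. Of the 109 named genes, 31 have another microRNA gene within 10 kb in GRCr8, so counts by symbol can miss members of a cluster. The table's share over all 23154 protein-coding genes of RefSeq was 24.2% with any peak and 8.92% with a peak within 10 kb, against 108 of 466 microRNA genes, 23.2%, and 38 of 466, 8.15%. The RefSeq table is of another assembly than the peaks and is not the gene set that the annotation used. Besides Mir9-2, the gene within 10 kb was Mir145, with an intergenic peak at 4.61 kb (chromosome 18, 56965285 to 56965489, score 7.02). miR-145 is known chiefly from smooth muscle and has been studied as an inhibitor of oligodendrocyte differentiation through Myrf. No peak had either miR-219 gene, Mir338 by its own symbol or a gene of the miR-17 to miR-92 cluster as its nearest gene.

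The other members of that list had their peaks farther out. Mir23a, whose product is known to repress the lamin gene Lmnb1, had a peak at -13.13 kb in a simple repeat (chromosome 19, 25305352 to 25305556, score 8.3). Mir146a, a microRNA of inflammatory signalling, had an intergenic peak at 25.97 kb (chromosome 10, 28936498 to 28936702, score 7.02). Mir138-2 had a peak at -52.79 kb (chromosome 19, 11202519 to 11202723, score 7.66) in an intron of Nup93, itself a nucleoporin gene. Mir138-1 had one at -91.36 kb (chromosome 8, 131640259 to 131640463, score 7.66) and Mir204 one at 94.26 kb (chromosome 1, 240497159 to 240497363, score 7.02) in an intron of Trpm3. Mir3065, opposite Mir338, had a peak at -23.16 kb in an intron of Baiap2 (chromosome 10, 109171967 to 109172171, score 7.02).

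Neuronal microRNAs, counted by their own symbols, contributed 16 peaks at 7 of 19 genes, 1 of them within 10 kb. All microRNA genes stood at 23.2% with a peak and 8.15% with one within 10 kb. Mir9-1, Mir9-3 and Mir218-1 of this list had peaks only through opposite-strand partners and are not among the 7. Mir153, whose host gene Ptprn2 encodes a protein of dense-core vesicles, held 8 of the 16. Its peaks lay at -323066, -285373, -278215, -78865, -68233, -12048, 33982 and 46702 bp, and 6 of them lay in introns of Ptprn2. The peak at 46702 bp lay in a RatSatRep2 repeat and the peak at -278215 bp in an LTR repeat. Scores of the 8 covered 7.02 to 8.94, which is a span around the median of all peaks. The peak at 33982 bp (chromosome 6, 145138944 to 145139148, score 7.02) overlapped an iOL peak by 192 bp.

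Other neuronal microRNAs had 1 or 2 peaks each. Mir129-1 had 2, at -13.4 kb (score 7.02) and at -21.22 kb in a SINE repeat (score 8.94). Mir128-1, which is transcribed with R3hdm1, had 1 in an intron of that gene at -23.62 kb (score 6.38). Mir218-2, which lies in the axon guidance gene Slit3, had 1 in an intron of Slit3 at 68.78 kb (score 7.66). Mir3565, opposite Mir218-1, had 2 in introns of the potassium channel partner gene Kcnip4, at -218.42 kb in a RatSatRep2 repeat (score 9.58) and at -385835 bp (score 7.66). Mir138-1, Mir138-2 and Mir9-2 also belong to this list. No peak named any of the 3 Mir124 genes, the Mir132 and Mir212 pair, Mir134 or Mir137.

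**Figure D1:**
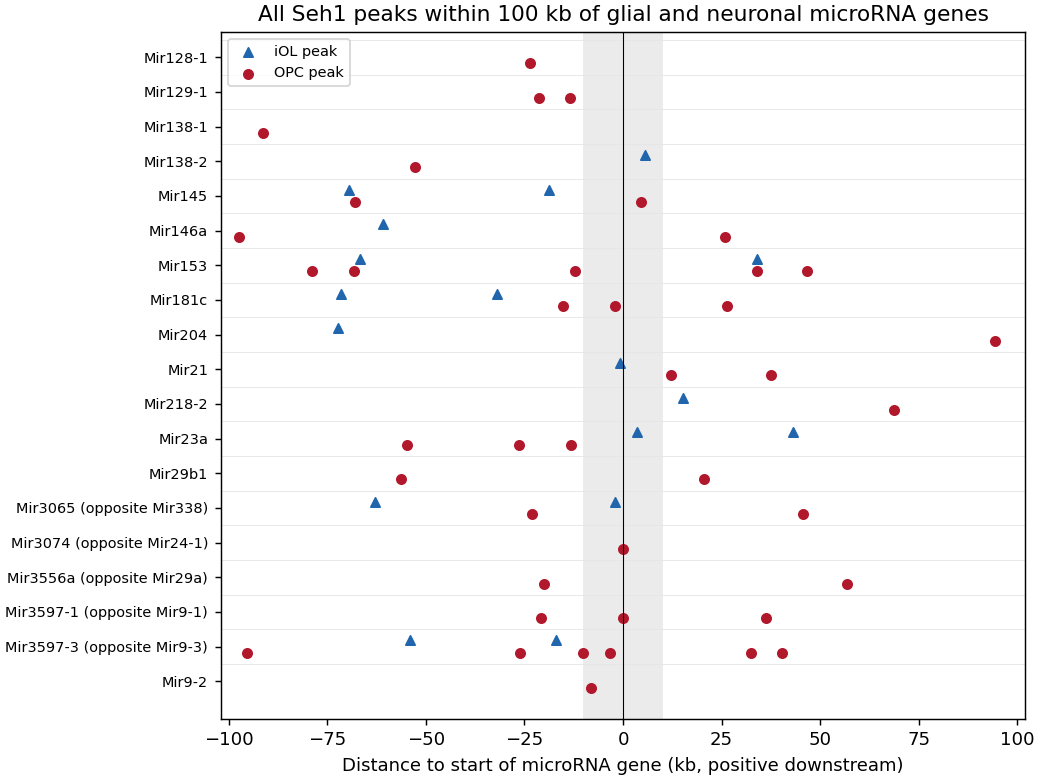
Seh1 peaks within 100 kb of the start of microRNA genes of the glial and neuronal lists that could be placed on rn6, with genes that lie opposite a neural microRNA. The x axis gives the distance in kb, triangles are iOL peaks, circles are OPC peaks of any gene, and the grey band marks 10 kb on either side. An OPC peak sits on the start of Mir3597-1 and of Mir3074, and an iOL peak lies 0.82 kb upstream of the start of Mir21.

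Astrocytic and microglial microRNAs were named as well, and each count below stands beside 23.2% of all microRNA genes. Of 12 astrocyte-list genes 4 had a peak: Mir181c at -1.93 kb (chromosome 19, 25292147 to 25292351, score 7.66), Mir21 at 12.12 kb (score 7.02), Mir29b1 at -56.28 kb (score 7.66) and Mir181a-1 at -288.52 kb (score 7.66). Mir3556a, opposite Mir29a, had one at -20.07 kb in an LTR repeat (score 8.3). Of 6 microRNA genes of microglia and blood, Mir142, a microRNA of blood cells, at 8.38 kb (score 7.02), and Mir146a had a peak. Mir155hg, the host of the immune miR-155 and not counted among the 6, had one at -17.6 kb (score 8.94). Mirlet7c-2 was the single gene named among 12 of the let-7 family, which times development, with peaks at -4.36 and -27.09 kb and a score of 7.66 each. Mirlet7b lies within 10 kb of Mirlet7c-2 in GRCr8 and was not named, since a peak names only its nearest gene.

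Muscle and epithelial microRNAs, known chiefly from other tissues than brain, were also named, again beside 23.2% of all microRNA genes. Of 8 genes of striated muscle 3 had a peak: Mir208b at 983 bp (score 7.02), Mir499 at 8.12 kb in an exon of its host Myh7b (score 8.3), and Mir1 at -93.72 kb (score 6.38) and -117.26 kb (score 5.75). Mir3546, opposite Mir208a, had a peak at -5.5 kb in an exon of the heart myosin gene Myh6 (score 11.5). Of 8 epithelial or endocrine genes 2 had a peak, the islet microRNA Mir375 at 3.08 kb (score 7.02) and -17.18 kb (score 6.38) and the skin microRNA Mir203 at -4.28 kb (score 10.9). No peak named Mir122 of liver or either of the 2 endothelial Mir126 genes.

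Across all 39 peaks within 10 kb, 12 lay within 1 kb of the hairpin start. Besides the 4 on hairpins, these were Mir702 at -127 bp (score 8.94), Mir3072 at 237 bp (score 6.38), Mir3102 at -256 bp (score 8.3), Mir1224 at 575 bp (score 6.38), Mir370 at 678 bp (score 10.2), Mir760 at 684 bp (score 10.9), Mir148a at -733 bp (score 9.58) and Mir208b. Scores of the 12 covered 6.38 to 10.9. From 1 to 5 kb the genes were Mir3473, Mir181c, Mir504, Mir375, Mir3597-3, Mir3594, Mir874, Mir202, Mir203, Mirlet7c-2, Mir365b, Mir145, Mir148b and Mir711, with scores of 6.38 to 10.9. From 5 to 10 kb they were Mir3546, Mir3550, Mir3075, Mir140, a second peak of Mir711, Mir193, Mir331, Mir3577, Mir3558, Mir499, Mir9-2, Mir142 and Mir182. Here the score of Mir193 stood at 20.4 and the others covered 7.02 to 11.5. The table places Mir504 on chromosome 6, while RefSeq has it on X in GRCr8, so its distance of 2786 bp is uncertain.

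**Figure D2:**
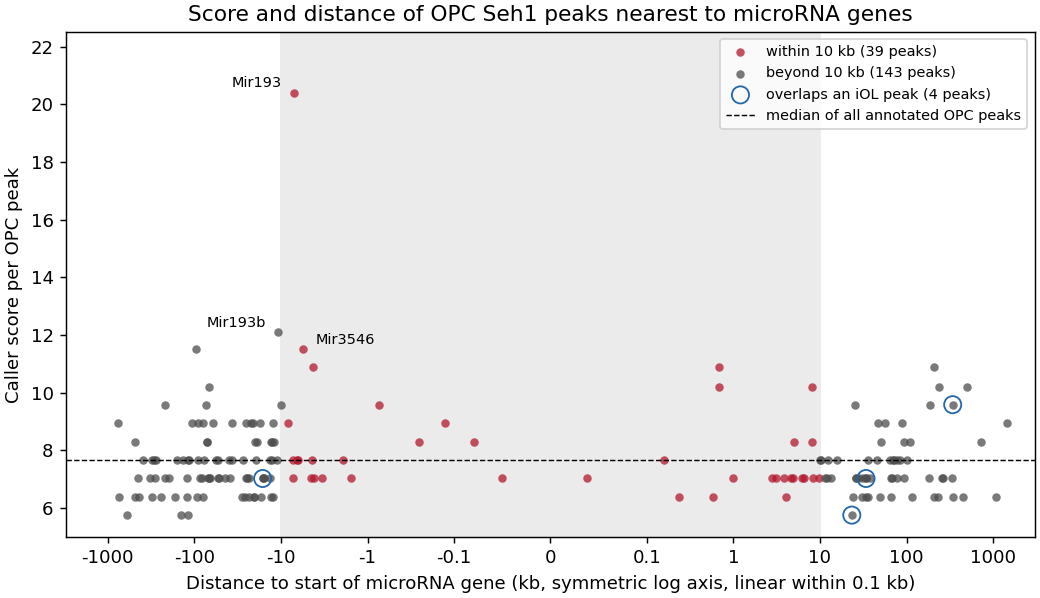
Caller score of each of the 182 OPC peaks nearest to a microRNA gene against its distance to the start of the gene in kb, on a symmetric log axis that is linear within 0.1 kb. Red points lie within 10 kb and grey points farther, rings mark the 4 peaks that overlap an iOL peak, and the dashed line is the median of 7.66 over all annotated OPC peaks. One peak, 7.04 kb upstream of Mir193, stands at 20.4, and the other 181 lie between 5.75 and 12.1.

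The imprinted region of chromosome 6 between Mir3543 and Mir1247 held 7 of the 182 peaks. This region, which corresponds to the Dlk1-Dio3 domain, is known for large microRNA clusters transcribed from the maternal chromosome. The peaks lay at Mir3543 and at Mir370 (133740492 to 133740696), at Mir3072 at 237, 71238, 77163 and 238458 bp, and at 188.39 kb from Mir1247 (134437689 to 134437893). Scores were 8.3 at Mir3543, 10.2 at Mir370, 6.38, 7.66, 7.66 and 10.2 at Mir3072 and 9.58 at Mir1247. This group was chosen after its values had been seen. Every annotated OPC peak between those of Mir3543 and Mir1247 had a microRNA gene as its nearest gene, but both limits were themselves set by microRNA peaks. The next peaks outside them were nearest to Begain and Dio3. The density of peaks was not compared with that of other regions.

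In distance to the nearest start site the microRNA peaks ran close to the list as a whole. The median was 36.3 kb over 182 microRNA peaks (95% interval of the median 25.5 to 55.7 kb) and 34.8 kb over 9084 annotated OPC peaks (33.4 to 36.7 kb). Within 10 kb lay 21.4% of the microRNA peaks (95% interval 15.7 to 28.1%) and 25.4% of all annotated OPC peaks. Within 1 kb the shares were 6.59% (3.45 to 11.2%) and 9.47% (8.87 to 10.1%), and beyond 100 kb they were 25.8% and 26.6%. Of these distance measures, the side of the start had the widest gap. Upstream lay 105 of 182 microRNA peaks, 57.7% (50.2 to 65.0%), and 42.4% of all annotated OPC peaks (41.4 to 43.5%). Counting only the nearest peak of each gene, the shares upstream were 56.0% of 109 microRNA genes (46.1 to 65.5%) and 41.3% of 5796 genes (40.0 to 42.5%). Within 10 kb the shares upstream were 48.7% of 39 microRNA peaks (32.4 to 65.2%) and 37.3% of 2308 OPC peaks (35.4 to 39.4%). These differences were not tested, since peaks of 1 library are not replicates.

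**Figure D3:**
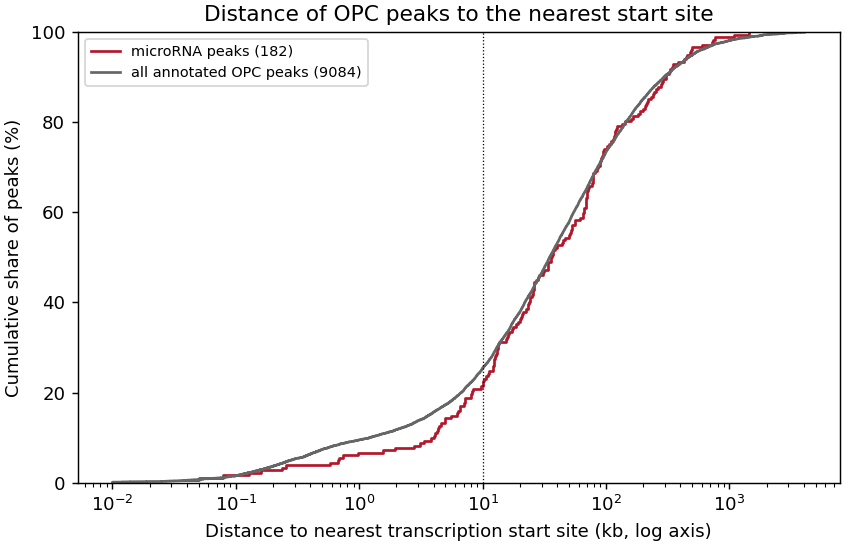
Cumulative share of peaks in percent against the distance to the nearest start site in kb on a log axis, for the 182 microRNA peaks (red) and all 9084 annotated OPC peaks (grey); distances under 10 bp are drawn at 10 bp. At the dotted line of 10 kb the curves stand at 21.4% and 25.4%, and their medians are 36.3 and 34.8 kb.

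By position, 117 microRNA peaks lay between genes, 64.3% (56.9 to 71.2%), compared with 56.7% of all annotated OPC peaks. Introns held 47 microRNA peaks, 25.8% (19.6 to 32.8%), compared with 29.4%. Promoters held 6, 3.3% (1.22 to 7.04%), compared with 4.02%, exons 5, 2.75%, compared with 6.8%, and transcript ends 7, 3.85% (1.56 to 7.76%), compared with 1.4%. A microRNA gene is so short that the class of transcript ends reaches peaks just downstream of its own hairpin, as at Mir139, Mir370, Mir760 and Mir208b. CpG islands outside promoters and exons held 9 microRNA peaks, 4.95%, compared with 5.37% of all. Annotated repeats held 63, 34.6% (27.7 to 42.0%), compared with 33.2%. Within 10 kb repeats held 2 of 39 microRNA peaks, 5.13% (0.627 to 17.3%), and 15.8% of all OPC peaks within 10 kb of a start. Beyond 10 kb they held 61 of 143, 42.7% (34.4 to 51.2%), and 39.2%, so both sets had more repeats away from the start.

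**Figure D4:**
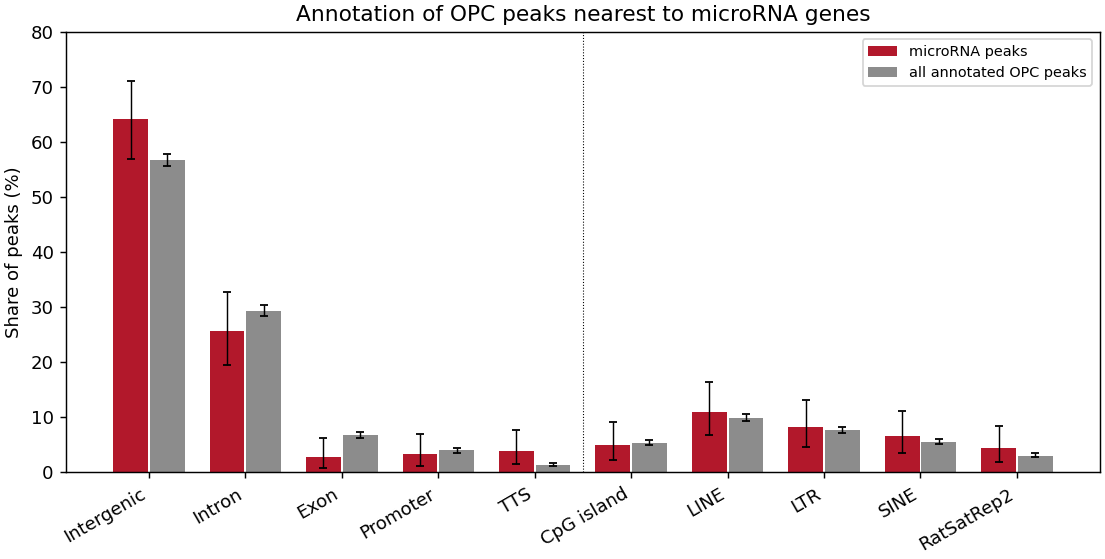
Share of peaks in percent in each class of the authors' annotation, for the 182 microRNA peaks (red) and all 9084 annotated OPC peaks (grey), with 95% exact binomial intervals. Classes left of the dotted line are exclusive; CpG islands and repeats to its right are finer labels of peaks between genes or in introns. Peaks between genes made up 64.3% and 56.7%.

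The 47 intron peaks lay in 29 genes. Ptprn2 held 6, Ctdspl, the host of Mir26a, held 4, and the glutamate receptor gene Grid1, the host of Mir346, held 3. Zmiz1, the host of Mir3075, and the ion channel gene Asic2 near Mir6327 held 3 each. The glutamate receptor gene Grm8 near Mir592, Kcnip4, Crtac1 near Mir3085 and Ttc7a near Mir3558 held 2 each. The other 20 genes held 1 each. Among these were Gria2, another glutamate receptor gene, the serotonin receptor gene Htr2c near Mir1298, Astn1 near Mir488, Evl near Mir342, Pank1 near Mir107 and Wwp2 near the cartilage microRNA Mir140. The rest of the 20 were Baiap2, Nup93, R3hdm1, Slit3, Trpm3, Aspg, Abcg5, Col7a1, Copz1, Dnajc8, MAST1, Rab3gap2, Sgcz and Slc39a11. Intron peaks in annotated repeats were found in Ptprn2, Ctdspl, Asic2, Grm8, Kcnip4, Ttc7a, Gria2, Htr2c, Dnajc8, Sgcz and Slc39a11. The repeat was RatSatRep2 at Htr2c and at Kcnip4. In Ctdspl the peaks at -52.7, -69.86 and -121.97 kb from Mir26a lay in SINE repeats.

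Most genes were named once. One peak named 70 genes, 2 peaks 20, 3 peaks 12, 4 peaks 5 and 8 peaks 2. Genes with 3 or more peaks made up 17.4% of 109 microRNA genes (10.8 to 25.9%) and 12.9% of 5796 genes (12.1 to 13.8%). The 2 genes with 8 peaks, Mir153 and Mir6322, were among 11 genes of the whole table with at least 8. The peaks of Mir6322 lay at -764354 to 447299 bp, none within 10 kb, with scores of 6.38 to 8.94. Of the 5 genes with 4 peaks, Mir26a had all of them in introns of Ctdspl, at -121972 to -18702 bp, and the other 4 genes, Mir297, Mir2985, Mir3072 and Mir802, had theirs mostly between genes. The 3 peaks of Mir193b, at -594257, -10659 and 30907 bp, lie on chromosome 14 in the table. RefSeq has the gene on chromosome 10 in GRCr8, so these distances are uncertain.

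**Figure D5:**
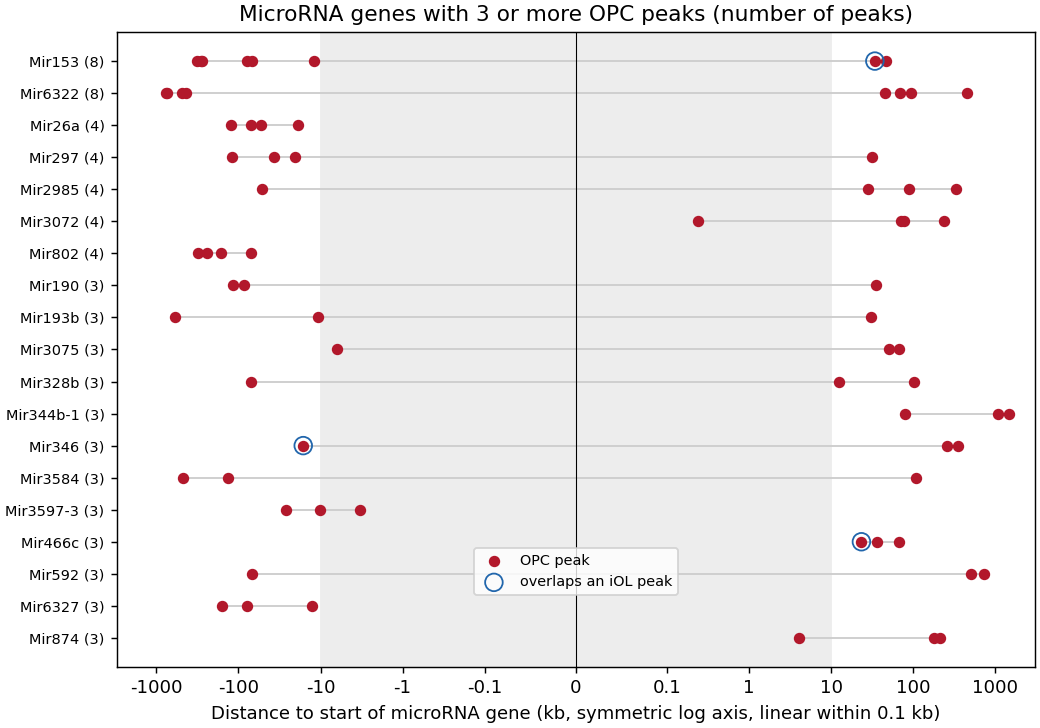
Position of OPC peaks at the 19 microRNA genes with 3 or more peaks, as distance to the start of the gene in kb on a symmetric log axis that is linear within 0.1 kb. Rings mark peaks that overlap an iOL peak, and the grey band marks 10 kb on either side. Of the 72 peaks drawn, 4 fall inside the band, at Mir3072, Mir3075, Mir3597-3 and Mir874.

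Scores lay in the range of the list as a whole. The median was 7.02 over 182 microRNA peaks (quartiles 7.02 and 8.3) and 7.66 over all annotated OPC peaks (quartiles 7.02 and 8.3). With 1 peak per gene the median over microRNA genes was 7.66. A score of 10 or more was held by 12 microRNA peaks, 6.59% (3.45 to 11.2%), and by 5.52% of all. Within 10 kb it was held by 6 of 39 microRNA peaks, 15.4% (5.86 to 30.5%), and by 5.46% of 2308 OPC peaks. Beyond 10 kb it was held by 6 of 143, 4.2% (1.56 to 8.91%), and by 5.53% of 6776. The highest belonged to Mir193 (chromosome 10, 67058755 to 67058959, score 20.4), at -7.04 kb between genes. Next were Mir193b (score 12.1), Mir3546 and Mir873 (11.5 each), Mir760, Mir203 and Mir874 (10.9 each), and Mir370, Mir3558, Mir3072 and 2 peaks of Mir592 (10.2 each). The peaks of Mir873 and Mir592 lay in L1 repeats and that of Mir874 in a SINE repeat. The nearest iOL peak to the start of Mir193 lay 51617 bp away.

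Several of the named microRNAs share a seed, so that they pair with the same sites. The family of Mir148a, Mir148b and Mir152 had 3 named genes, and those of miR-193, miR-181 and miR-135 had 2 each. Mir28 with Mir708, Mir138-1 with Mir138-2, and Mir3597-1 with Mir3597-3 also shared a seed and are left out below. The sequences of the families named first show the shared seed in capitals.
miR-148a-3p: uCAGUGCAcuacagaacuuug
miR-148b-3p: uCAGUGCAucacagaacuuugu
miR-152-3p: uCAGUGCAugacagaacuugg
miR-193a-3p: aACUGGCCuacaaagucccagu
miR-193b-3p: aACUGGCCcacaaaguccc
miR-181a-5p: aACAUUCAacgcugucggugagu
miR-181c-5p: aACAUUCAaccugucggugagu
miR-135a-5p: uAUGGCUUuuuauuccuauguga
miR-135b-5p: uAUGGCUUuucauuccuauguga
The first family had peaks at -733 bp (Mir148a, score 9.58), 4.92 kb (Mir148b, score 7.02) and 26.26 kb (Mir152, score 7.02). The miR-193 pair had the 2 highest scores of all 182 peaks, at different chromosomes in the table. Whether the second peak lies near Mir193b is uncertain, since RefSeq has that gene on chromosome 10 in GRCr8 and the table on chromosome 14. The miR-181 pair lay at -1.93 and -288.52 kb with equal scores of 7.66, and the miR-135 pair at 49.92 and 34.08 kb with scores of 6.38 and 7.02. The shared seeds are a description.

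The overlap with iOL peaks was close to that of the OPC list as a whole. An overlap of 1 bp or more was found for 4 of the 182 microRNA peaks, 2.2% (0.602 to 5.53%), and for 1.73% of all annotated OPC peaks. Besides the peak of Mir153, these were an intron peak of Grid1 at -16.24 kb from Mir346 (68 bp overlap, score 7.02), a peak between genes at 23.31 kb from Mir466c (184 bp, score 5.75) and a RatSatRep2 repeat at 340.38 kb from Mir876 (151 bp, score 9.58). Within 10 kb of a hairpin 0 of 39 were shared. A count of 0 allows up to 3 of 39 peaks, a share of 7.69%, and the upper bound of the 95% exact interval was 9.03%; 1.56% of all 2308 OPC peaks within 10 kb of a start were shared. An iOL peak centre lay within 10 kb of 11.0% of microRNA peaks (6.84 to 16.5%) and of 10.0% of all, and within 50 kb of 39.0% (31.9 to 46.5%) and of 34.8%. Among peaks within 10 kb of a start, 26 of 39 microRNA peaks had an iOL peak within 50 kb, 66.7% (49.8 to 80.9%), and 42.9% of all 2308 such peaks did (40.9 to 45.0%). That difference was not tested.

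Hairpin starts could be placed on rn6 for 95 of the 109 genes, from the distances of OPC peaks. An iOL peak lay within 10 kb of 11 of them, 11.6% (5.92 to 19.8%), and of 9.53% of 1951 genes placed from 2 or more peaks. Within 50 kb the counts were 38 of 95 microRNA genes, 40.0% (30.1 to 50.6%), and 34.7% of those 1951 genes. The nearest was at Mir21, a microRNA raised in reactive astrocytes and many tumours, at -821 bp (chromosome 10, 73903018 to 73903226). At Mir3065 and Mir338, whose product promotes oligodendrocyte maturation, an iOL peak lay 1.95 kb from the start on the side upstream of Mir3065 (chromosome 10, 109193179 to 109193387). Mir23a had an iOL peak at 3.58 kb (chromosome 19, 25322058 to 25322266) and Mir138-2 one at 5.53 kb (chromosome 19, 11144196 to 11144404). The other 7 were Mir3102 (3.45 kb), Mir6314 (3.81 kb), Mir3075 (4.25 kb), Mir711 (4.49 kb), Mir3564 (-7.97 kb), Mir802 (-9.24 kb) and Mir148a (-9.36 kb). None of these 11 iOL peaks overlapped an OPC peak of the same gene.

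The positions of Mir21, Mir3065, Mir138-2 and Mir148a rest on the strand in GRCr8, a rule that gave the right side for 95.7% of 1048 genes where it could be checked. The IgG library was of iOL, so background in OPC at these sites is not known from it.

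Genes that make and use microRNAs were named as well. Of 30 genes of microRNA processing and silencing 13 were the nearest gene of an OPC peak, beside 24.2% of all coding genes, and 7 had one within 10 kb, beside 8.92%. The difference was not tested. Ago1, an Argonaute, had a peak in its 5′ UTR at 193 bp (chromosome 5, 144479101 to 144479305, score 11.5), and Adarb1, an RNA-editing enzyme, one in its promoter at -258 bp (score 10.2). Prkra, a partner of Dicer1, had one at 405 bp (score 6.38). Lin28a, which blocks let-7 processing, had one at -1.38 kb (score 7.02), and Ran, which drives nuclear export of hairpins, one at -3.13 kb (score 7.66). Srsf3 and Khsrp, whose products are splicing factors that also bind microRNA precursors, had peaks at 6.2 kb (score 7.66) and 6.21 kb (score 7.02). No peak named Drosha, Dgcr8, Xpo5 or Dicer1.

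Of 18 genes studied as targets or partners of these microRNAs 11 had a peak and 5 had one within 10 kb. Lingo1 and Etv5, genes studied as targets of miR-219, had peaks at 122 bp in the 5′ UTR and at 339 bp in a CpG island, with a score of 7.02 each, and Lingo1 had 3 more beyond 10 kb. Pmp22, a myelin gene studied as a target of miR-9, had one at 2.36 kb (score 7.02) and another at 160.8 kb (score 14.0) that overlapped an iOL peak. Ptbp1, the splicing repressor lowered by miR-124, had peaks at -1.42 kb (score 7.02) and -14.88 kb (score 9.58), both in introns of Arhgap45. Myrf, a transcription factor gene of myelination, had one at -6.91 kb in an exon of Dagla and one at 11.77 kb in its own intron, with a score of 7.66 each. Sox6, Zbtb18, Sox4, Lmnb1, Fgfr2 and Ptbp2 had peaks only beyond 10 kb. No peak named Pdgfra, Hes5, Foxj3, Elovl7, Neurod1, Zeb2 or Rest. The count of 11 of 18 stands beside 24.2% of all coding genes and was not tested either.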

How the data were processed

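Per the submitters' processing notes, Bowtie2 and HOMER were used with builds rn6 and hg18, without versions or roles. The sources used here do not state trimming, duplicate removal, peak thresholds or how reads with several matches were treated, which bears on repeats and on microRNAs with near-identical copies. The authors deposited peak positions per Seh1 library and 1 annotated table with a caller score and a focus ratio (a fraction from 0 to 1, not used here) per peak. Per the file headers the table was made by annotatePeaks.pl of HOMER with rn6, and its input name joins OPC Seh1 to iOL IgG. Although filed under the iOL library, it holds 9084 intervals that are all in the OPC list and 0 that are in the iOL list. The 33 OPC peaks without a row were not used.

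Gene name, class and distance were used as deposited. Peaks were called shared at 1 bp of overlap. A hairpin start was placed where 2 or more own peaks agreed (38 genes), where the distances of other genes' peaks left 1 side (13), or by the GRCr8 strand where 20 neighbouring genes kept their order (44). In 1951 genes with 2 or more peaks the right side was always among those allowed. RefSeq tables of GRCr8 gave names, neighbours and sequences; hairpins were present for 94 of 109 genes. Counting steps were tested on simulated data. Python 3.11.15, pandas 2.3.3 and scipy 1.17.1 were used. Members, lists and comparisons were chosen with earlier results of these data known. Named genes were those within 10 kb, on a list, shared with iOL, among the highest scores, or with 3 or more peaks. Alternatives were other distance limits, overlaps, scores at or above the median, 1 peak per gene, and no repeats.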

Additional observations from a re-analysis of the deposited data

How the results depend on the processing

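With a limit of 20 kb, 65 peaks lay near a hairpin in place of 39, and with 5 kb 26 did. With scores at or above the median of all peaks, 19 peaks lay within 10 kb, 64 microRNA genes in place of 109 were named, 1 peak in place of 4 was shared with iOL, and the processing and target lists had 6 and 7 genes with a peak in place of 13 and 11. With peaks within 10 kb only, these lists had 7 and 5. Taking 1 peak per gene put the median distance at 15.6 kb in place of 36.3 kb, since the nearest peak of each gene was kept. Within 50 kb of the start, 38 placed genes had an iOL peak in place of 11. The other alternatives kept counts within 1.5 times the reported ones and shares and medians within their 95% intervals. No paired analysis was possible because each stage has 1 library. Depth is unknown, so a gene without a peak is not shown to be unbound.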
